A study of Rattus norvegicus with 91 samples.

Results

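The comparison set the last time of a long course of methylprednisolone treatment, 168 h, against that course's controls, over all measured genes. Its 8 liver RNA arrays were chosen by their titles and are 8 of the 44 arrays of the long course and of the 91 arrays of the series. The 4 arrays at 168 h are from livers of rats of the Wistar strain, and their label gives a dose of 50 mg/kg of methylprednisolone, which is a synthetic glucocorticoid. The 4 control arrays are labelled time 0, in a label that names the same drug and dose, and no vehicle is named. The labels give no route, dosing schedule, sex, age or time of day. They also do not say whether the replicates are separate animals, so the errors and p-values below measure only the spread between arrays, which may be technical.

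Glucocorticoids bind the glucocorticoid receptor, which moves into the nucleus and switches genes on directly at its binding sites and holds others down. In the liver they are known for inducing enzymes that break down amino acids and supply carbon for glucose synthesis, for promoting fat synthesis over days, for raising some acute-phase plasma proteins and for dampening immune genes. The liver also makes the plasma proteins that carry steroid and thyroid hormones, and it inactivates steroids and drugs with cytochrome P450 and conjugating enzymes.

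Each array gave a signal for each probe set, a set of short oligonucleotides against 1 transcript, in intensity units. The number of arrays, not a read depth, limits the precision. Hepatocyte markers such as albumin were bright in both groups, with a summed signal over 9 genes of 42999 to 103138 at 168 h and 54918 to 100422 in the controls. All 8 arrays shared a trimmed mean signal of about 150. Bacterial and phage spike-in RNAs were bright on 3 of the 4 arrays at 168 h and dim on replicate 1, against 1 bright control (replicate 4) and 3 dim ones. Of the 638 genes past the threshold, 630 had the same sign within the dim and within the bright arrays, although these are the arrays that gave the calls, and 503 also passed with the spike-in class as a block. The log2 ratio of 3' to 5' signal of Gapdh, a sign of RNA or labelling quality, was 0.40 ± 0.06 at 168 h and 0.10 ± 0.20 in the controls (SD, n = 4 each, two-sided exact permutation p = 0.0571, where the smallest possible is 0.0286). The same ratio for beta-actin was 0.92 ± 0.27 at 168 h and 0.92 ± 0.09 in the controls (SD, n = 4 each). Pairs of arrays correlated at 0.914 to 0.939 within 168 h, at 0.888 to 0.944 within the controls and at 0.874 to 0.914 between the groups.

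Over all genes, 638 of 8069 tested (7.91%) passed an adjusted p of 0.05 in limma, 282 of them higher at 168 h (3.49%) and 356 lower (4.41%). In probe sets these were 825 of 11106 (7.43%), with 377 higher (3.39%) and 448 lower (4.03%). The median log2 change over all genes was -0.02, and 107 genes rose by more than 1 log2 unit while 83 fell by more than that. All 168 h arrays lay above all controls in 311 genes (3.85%) and below all controls in 409 (5.07%). Changes below are log2 differences of signal + 32, 168 h minus control, ± standard error, so that the change of dim genes is understated. In bulk liver, fewer cells of a type and less RNA per cell cannot be told apart. A fit to the 8 arrays alone called 266 probe sets, 144 higher and 122 lower, and leaving out 168 h replicates 2 and 3 together left 479, with 246 higher and 233 lower.

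The 15 genes with the largest rises included enzymes of amino acid and methyl-group metabolism, lipid enzymes and acute-phase proteins. Cyp4a8, a fatty acid hydroxylase of the cytochrome P450 family, had signals of 2109, 987, 1692 and 1267 at 168 h (replicates 1 to 4, the order used throughout), against 29.7, 30.3, 51.6 and 43.3 in the controls. All 168 h arrays were far above all controls, and the change was 4.41 ± 0.35 (adjusted p = 1.75e-11). Gpt, the aminotransferase that takes the amino group off alanine, stood at 1431, 1249, 1071 and 1454 at 168 h. Its control signals were 77.3, 80.8, 139 and 49.7. Its groups did not overlap, and it rose by 3.53 ± 0.34 (adjusted p = 2.94e-09). Bhmt, which remethylates homocysteine with betaine, gave 5710.5, 5024, 5717 and 13757 at 168 h and 848, 68.5, 2470.0 and 2539 in the controls. Every 168 h array exceeded every control there, with replicate 4 the highest, and the change was 3.00 ± 0.57 (adjusted p = 0.000388). Prodh, the first enzyme of proline breakdown, rose by 2.61 ± 0.38 (adjusted p = 7.92e-06).

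**Figure D1:**
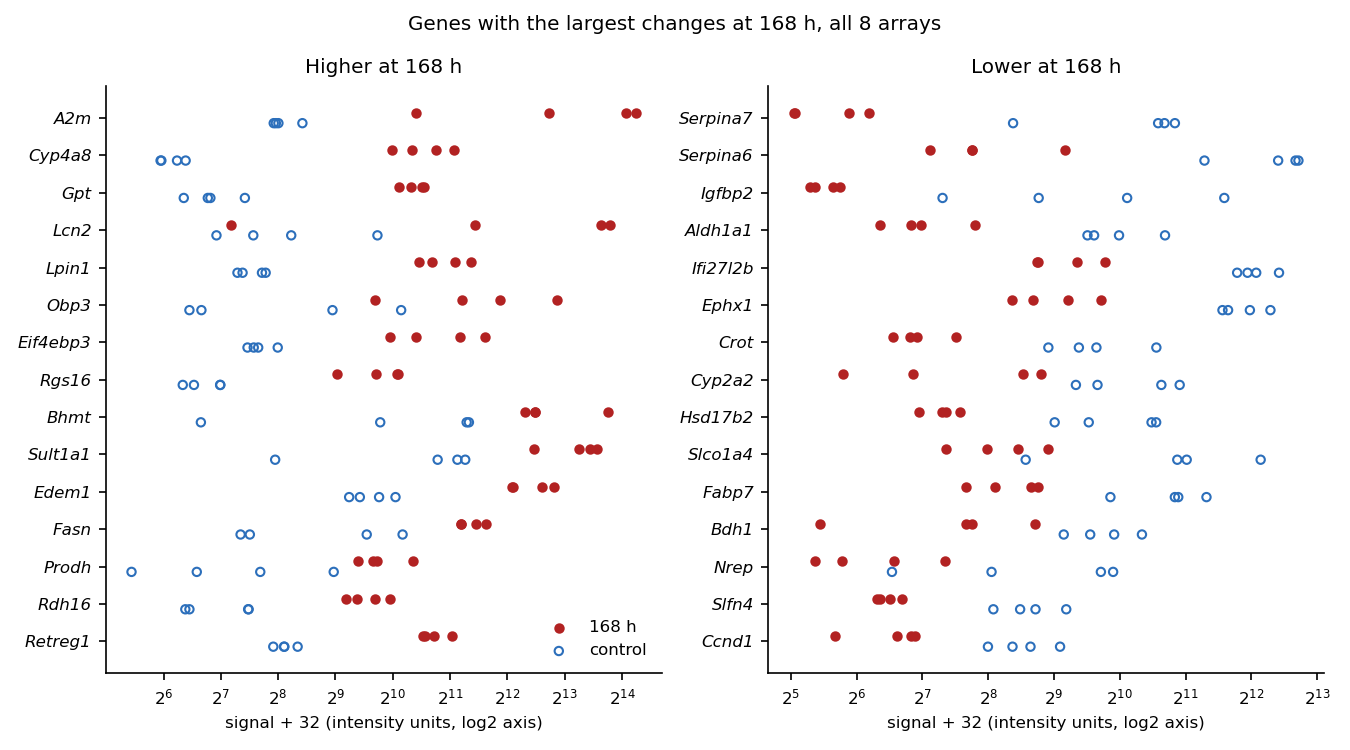
Signal + 32 in intensity units on a log2 axis for the 15 genes with the largest rises and the 15 with the largest falls past the threshold; each point is 1 array, filled red for 168 h and open blue for control. Cyp4a8 lies between 987 and 2109 at 168 h, against 29.7 to 51.6 in the controls, while Lcn2, Obp3, Slco1a4 and Nrep overlap between the groups.

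Lipid genes rose too. Fasn, the enzyme that builds palmitate, had signals of 2304, 3122, 2306 and 2774 at 168 h, against 130.5, 149.7, 715 and 1121 in the controls, and changed by 2.72 ± 0.52 (adjusted p = 0.000408). The 168 h values lay close together and above a control group that ranged widely. Lpin1, a phosphatidate phosphatase on the path to triglyceride and a coregulator of oxidation genes, had 2604, 2153, 1381 and 1616 at 168 h and 134, 124, 178 and 188 in the controls, without overlap, a change of 3.36 ± 0.43 (adjusted p = 7.68e-07). Rdh16, a retinol and steroid dehydrogenase, rose by 2.60 ± 0.30, and Sult1a1, a sulfotransferase of phenols, by 2.90 ± 0.39 (adjusted p = 8.48e-08 and 2.04e-06).

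Signalling and quality-control genes made up much of the rest of the list. Rgs16, which shortens signalling from G proteins, stood at 800.1, 1062, 1044 and 489.7 at 168 h, against 94.9, 60.4, 48.7 and 95.2 in the controls, with no overlap and a change of 3.01 ± 0.41 (adjusted p = 2.66e-06). Eif4ebp3, a repressor of cap-dependent translation, rose by 3.11 ± 0.44 (adjusted p = 4.99e-06). Edem1, which directs misfolded glycoproteins out of the endoplasmic reticulum, rose by 2.78 ± 0.28, and Retreg1, a receptor for autophagy of that organelle, by 2.59 ± 0.36 (adjusted p = 4.42e-09 and 3.45e-06). Obp3, a urinary lipocalin of the rat, had 3713, 793, 2342 and 7428 at 168 h and 69.2, 1101, 55.5 and 462 in the controls. Its change of 3.36 ± 0.56 passed (adjusted p = 7.54e-05) although control replicate 2 lay above 168 h replicate 2.

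The largest falls were in hormone carriers and in enzymes that clear steroids, drugs and aldehydes. Serpina7, thyroxine-binding globulin, had signals of 1.58, 41.1, 0.969 and 27.1 at 168 h, against 1500.2, 1796, 1606 and 301 in the controls, so that 168 h arrays were near the floor of the scale and control replicate 4 was the lowest control. The change was -4.57 ± 0.46 (adjusted p = 4.42e-09). Serpina6, the corticosteroid-binding globulin that carries glucocorticoids in plasma, stood at 185, 184, 106 and 540.2 at 168 h and 5392, 2464, 6482 and 6683 in the controls. The groups were far apart, with a change of -4.32 ± 0.46 (adjusted p = 1.42e-08). Igfbp2, a binding protein of insulin-like growth factors, gave 17.7, 9.48, 7.23 and 21.6 at 168 h, against 3044, 403, 1074 and 126 in the controls. All 168 h arrays were below the lowest of the widely spread controls, and the change was -3.93 ± 0.49 (adjusted p = 3.79e-07).

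Among the clearing enzymes, Ephx1, the microsomal epoxide hydrolase, had signals of 562, 376, 297 and 810.0 at 168 h and 2985, 3169, 3996 and 4969 in the controls, a change of -2.87 ± 0.38 (adjusted p = 1.61e-06). Aldh1a1, which oxidises retinal and other aldehydes, stood at 50.1, 81.9, 93.7 and 192 at 168 h, against 983, 696, 1616 and 749 in the controls, a change of -2.95 ± 0.39 (adjusted p = 1.33e-06). Neither gene overlapped between the groups. Hsd17b2, which inactivates estradiol and testosterone, fell to 91.7, 125, 159 and 131 at 168 h, against 1469, 483, 706 and 1397 in the controls (-2.60 ± 0.46, adjusted p = 0.000169). Cyp2a2, a steroid hydroxylase of male rat liver, changed by -2.63 ± 0.40 and Slco1a4, an uptake transporter of organic anions, by -2.47 ± 0.42 (adjusted p = 1.57e-05 and 9.76e-05). The 4 arrays of Cyp2a2 at 168 h lay below all controls, whereas 168 h replicate 4 of Slco1a4 lay above control replicate 2.

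Fat oxidation enzymes and growth or interferon genes completed the falls. Crot, which makes octanoyl-carnitine from peroxisomal products, had 62.2, 80.3, 89.4 and 149.5 at 168 h, against 633, 450.2, 1472 and 768 in the controls, a change of -2.67 ± 0.41 (adjusted p = 1.92e-05). Bdh1, which interconverts the ketone bodies, changed by -2.34 ± 0.41 and Fabp7, a fatty acid carrier, by -2.43 ± 0.36 (adjusted p = 0.000121 and 1.00e-05). Ifi27l2b, a member of an interferon-induced family, stood at 618, 397, 401 and 848 at 168 h and 3896, 3489.7, 5441 and 4272 in the controls, without overlap (-2.90 ± 0.31, adjusted p = 1.18e-08). Slfn4, a schlafen family member, changed by -2.15 ± 0.30, and Ccnd1, the cyclin that opens the G1 phase, by -2.02 ± 0.33 (adjusted p = 3.15e-06 and 4.15e-05). Nrep changed by -2.29 ± 0.65 (adjusted p = 0.022), with overlapping groups, and the call ended without 168 h replicates 2 and 3 or control replicates 3 and 4 left out singly (adjusted p = 0.0651 to 0.111).

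Tat, tyrosine aminotransferase, is the classical glucocorticoid-induced liver enzyme. Its signals were 1845, 2579, 2713 and 814 at 168 h and 1374, 435, 652 and 1087 in the controls, with 168 h replicate 4 below control replicates 1 and 4. The change of 1.13 ± 0.34 passed (adjusted p = 0.0302), but the call ended without 168 h replicates 1, 2 and 3 or control replicates 2 and 3 left out singly (adjusted p = 0.0573 to 0.155). With the spike-in class as a block the adjusted p was 0.0522. Nr3c1, the glucocorticoid receptor gene, had 280.3, 279.5, 295 and 346 at 168 h, against 458, 419, 519 and 257 in the controls, and the difference of -0.39 ± 0.25 did not pass (adjusted p = 0.411). Control replicate 4 was below all 168 h arrays and the other controls were above them.

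Of 26 tested genes known to be induced by glucocorticoids, 17 rose and 1 fell, with a median change of 0.94. Fkbp5, a co-chaperone that lowers the receptor's affinity for hormone, had signals of 660.2, 393, 497 and 389.7 at 168 h, against 76.1, 83.0, 85.4 and 59.2 in the controls. All 4 treated arrays were several times above every control (2.24 ± 0.32, adjusted p = 6.78e-06). Tsc22d3, also called GILZ, an anti-inflammatory mediator, rose by 1.41 ± 0.24, Klf9, a transcription factor, by 1.39 ± 0.22, and Dusp1, a phosphatase that turns off stress kinases, by 1.25 ± 0.25 (adjusted p = 0.000121, 2.55e-05 and 0.000889). Foxo1, a transcription factor of fasting, rose by 1.53 ± 0.42 (adjusted p = 0.0167). The gene that fell was Pdk4, the kinase that closes pyruvate dehydrogenase, with 84.2, 197, 75.2 and 182 at 168 h and 339.9, 1010.0, 251 and 231 in the controls (-1.39 ± 0.27, adjusted p = 0.000611). Per1 (0.23 ± 0.20, adjusted p = 0.589), Sgk1 (-0.20 ± 0.20, adjusted p = 0.658) and Angptl4 (0.02 ± 0.28, adjusted p = 0.988) did not pass. Without 168 h replicates 2 and 3 the list had 10 members higher and 1 lower.

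Amino acid catabolism had 10 of 33 tested genes higher and 2 lower, with a median of 0.43. Tdo2, which opens the ring of tryptophan, had 4850.4, 12314, 10532 and 11312 at 168 h, against 2468, 2170.3, 3584 and 3462 in the controls, and rose by 1.67 ± 0.29 (adjusted p = 9.11e-05). Acmsd, which diverts tryptophan products away from NAD synthesis, stood at 456, 495, 508 and 557 at 168 h and 90.3, 51.6, 68.6 and 96.6 in the controls (2.32 ± 0.24, adjusted p = 1.10e-08). For both, the groups were apart. Kmo, which takes kynurenine toward that same branch, was lower, with 183, 241, 174 and 181 at 168 h and 1331, 352, 1185 and 471 in the controls (-1.74 ± 0.31, adjusted p = 0.000169). Sds, serine dehydratase, had 651, 1096, 1523 and 1518 at 168 h, against 1641, 67.5, 71.3 and 81.1 in the controls, where replicate 1 stood above all 168 h arrays and the other controls far below (2.47 ± 0.61, adjusted p = 0.00721). Oat (-0.17 ± 0.35) and Hal (0.06 ± 0.27) did not pass (adjusted p = 0.846 and 0.944).

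In the methionine cycle 5 of 12 genes rose and 0 fell (median 0.25). Beside Bhmt these were Gnmt, which uses S-adenosylmethionine to methylate glycine (1.83 ± 0.32, adjusted p = 0.000153), Ahcy, which splits S-adenosylhomocysteine (1.49 ± 0.25, adjusted p = 8.51e-05), Sardh, which breaks down sarcosine (1.34 ± 0.23, adjusted p = 7.54e-05), and Mat1a, which makes S-adenosylmethionine (1.01 ± 0.29, adjusted p = 0.024). The transsulfuration genes Cbs and Cth had changes of 0.20 and -0.08 and did not pass (adjusted p = 0.705 and 0.951). Gnmt had 3626, 4038, 3586 and 4971 at 168 h, against 1460.5, 394, 1559 and 1616 in the controls, where replicate 2 was the lowest. The urea cycle had 2 of 7 genes higher (median 0.47), Arg1, arginase (1.66 ± 0.24, adjusted p = 6.01e-06), and Ass1, argininosuccinate synthase (1.60 ± 0.33, adjusted p = 0.00124). Arg1 stood at 5456, 8508, 10630.1 and 10848 at 168 h and 2744, 1685, 3146 and 3523 in the controls, without overlap. Cps1, the entry enzyme of the cycle, had a difference of 0.86 ± 0.34 and did not pass (adjusted p = 0.12).

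Gluconeogenesis had 3 of 8 genes higher and 0 lower (median 0.48). Slc37a4, which carries glucose 6-phosphate into the endoplasmic reticulum, had 1884, 1557, 1374 and 1960.2 at 168 h, against 597, 253, 413 and 1041 in the controls, with no overlap (1.66 ± 0.24, adjusted p = 7.81e-06). Pc, pyruvate carboxylase, changed by 0.80 ± 0.24 (adjusted p = 0.0323), and the call ended without 168 h replicates 1 and 4 or control replicates 2 and 3 left out singly (adjusted p = 0.0592 to 0.218). For Fbp1, fructose bisphosphatase (0.57 ± 0.17, adjusted p = 0.0328), the call ended without 168 h replicates 2, 3 and 4 or control replicates 2, 3 and 4 left out singly (adjusted p = 0.0551 to 0.165). Pck1, the enzyme usually taken to set the rate of glucose synthesis, had 3700.2, 5638, 5841 and 4951 at 168 h and 4665, 4905, 3409 and 3594 in the controls, overlapping groups, and did not pass (0.27 ± 0.27, adjusted p = 0.632). Without 168 h replicates 2 and 3 the list had 1 call.

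Of 17 genes of glycolysis and glycogen, 3 rose and 1 fell (median 0.54), with 5 rises without control replicate 2 and 6 without control replicate 4. Pfkfb1, the bifunctional enzyme that sets fructose bisphosphate signalling in liver, had 983, 511, 614 and 1252 at 168 h, against 77.2, 69.8, 126 and 234 in the controls (2.48 ± 0.31, adjusted p = 3.79e-07). Ppp1r3b, which brings a phosphatase to glycogen, rose by 0.98 ± 0.24, and Ugp2, which makes UDP-glucose for glycogen, changed by -1.07 ± 0.25 (adjusted p = 0.00684 and 0.00541). The other rise was Gpi, glucose phosphate isomerase (1.02 ± 0.30, adjusted p = 0.0305), where the call ended without 168 h replicates 1, 2 and 4 or control replicates 1 and 3 left out singly (adjusted p = 0.0663 to 0.141). In the insulin and growth hormone list 1 of 20 genes rose and 1 fell (median 0.01). These 5% each way are near the shares over all genes (3.49% higher and 4.41% lower). The member that fell was Igfbp2. The one that rose was Igfbp3, the main plasma carrier of Igf1 (0.98 ± 0.27, adjusted p = 0.0167), and the call ended without 168 h replicate 1 or control replicates 1 and 2 left out singly (adjusted p = 0.053 to 0.084). Igf1 itself had a difference of -0.59 ± 0.20 and did not pass (adjusted p = 0.0718).

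**Figure D2:**
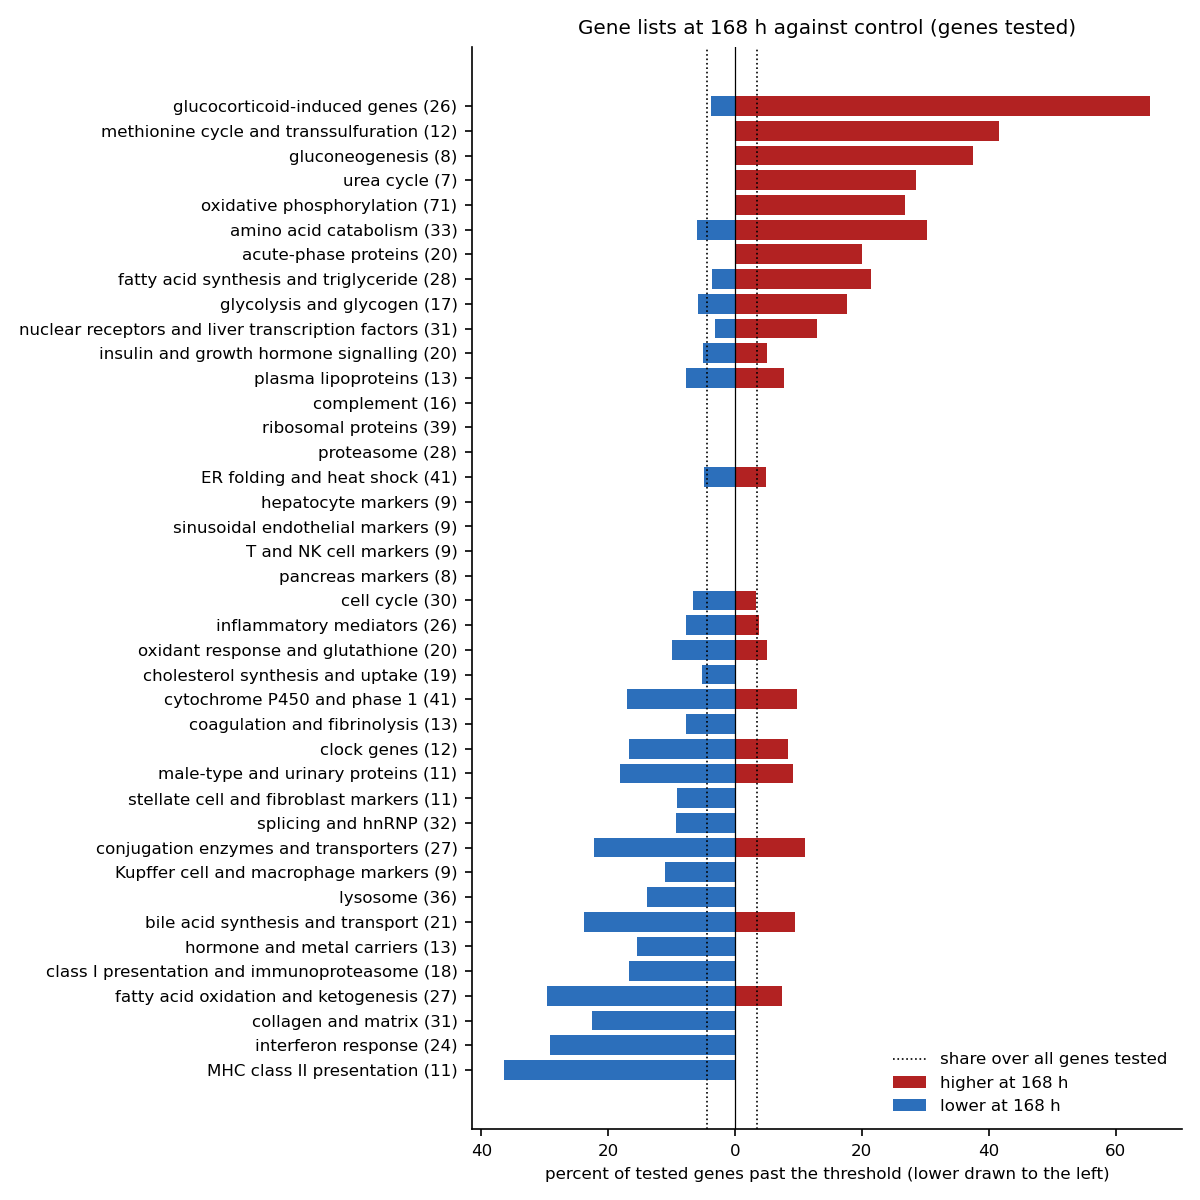
Percent of each list's tested genes past the threshold, higher at 168 h to the right and lower to the left, with the number tested in brackets and dotted lines at the shares over all genes, 3.49% and 4.41%; lists with fewer than 5 tested genes are not drawn. The glucocorticoid-induced list reaches 65.4% higher and the class II list 36.4% lower, and the lists were written with earlier results of these data known.

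Fat synthesis and fat oxidation genes moved in opposite senses in most called members. Of 28 genes of fatty acid and triglyceride synthesis, 6 rose and 1 fell (median 0.34). Within the dim arrays, where 168 h has replicate 1 alone, the median was 0.59. It was -0.14 within the bright ones, where the controls have replicate 4 alone. Without 168 h replicates 2 and 3 the list had 4 higher and 1 lower. Acaca, acetyl-CoA carboxylase, which makes the building block for Fasn, had 1573, 1490.0, 1203 and 1583 at 168 h and 208, 119, 299 and 494 in the controls, with no overlap (2.40 ± 0.41, adjusted p = 0.000103). Thrsp, a lipogenic regulator, stood at 4626, 7141, 5335 and 6915 at 168 h, against 384, 717, 1884 and 4585 in the controls (2.21 ± 0.44, adjusted p = 0.000772). Control replicate 4 of Thrsp almost reached the lowest 168 h array, and within the bright spike-in arrays the difference was 0.48. Fads2, a desaturase of polyunsaturated fatty acids, was the member that fell (-1.78 ± 0.32, adjusted p = 0.000192). Scd, the desaturase of saturated fatty acids, had 4311, 6623, 2209 and 5733 at 168 h and 59.9, 677, 964 and 5931 in the controls, so wide a control range that its change of 2.48 ± 0.84 did not pass (adjusted p = 0.0611). Srebf1, the transcription factor of lipogenesis, had a difference of -0.08 ± 0.40 and did not pass (adjusted p = 0.948).

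Of 27 oxidation and ketogenesis genes, 8 fell and 2 rose (median -0.41). Beside Crot and Bdh1, Ehhadh, the bifunctional enzyme of peroxisomes, had 369, 625, 451 and 527 at 168 h, against 3491, 774, 2365 and 1653 in the controls, with no overlap (-1.83 ± 0.37, adjusted p = 0.000992). Cyp4a1 and Cyp4a3, fatty acid hydroxylases that follow PPARα activity, changed by -1.49 ± 0.25 and -1.44 ± 0.30 (adjusted p = 6.44e-05 and 0.00149). Cyp4a1 had 611, 553, 478 and 655 at 168 h and 2174, 2755, 1391 and 914 in the controls, below them on all arrays, while the related Cyp4a8 was above them on all arrays. The members that rose were Cyp4a8 and Pex11a, a peroxisome division factor (1.11 ± 0.32, adjusted p = 0.0253). Cpt1a, the entry enzyme for mitochondrial oxidation, had a difference of -0.41 ± 0.38 and did not pass (adjusted p = 0.608). Without 168 h replicates 2 and 3 the list had 5 lower and 2 higher.

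Of 19 cholesterol genes 0 rose and 1 fell (median -0.18), and at an unadjusted p under 0.05 limma also gave 0 higher and 1 lower. The share past the threshold as lower, 5.26%, was near the 4.41% over all genes. The fall was Msmo1, a sterol oxidase (-1.31 ± 0.42, adjusted p = 0.0462), and the call ended without 168 h replicates 1, 2, 3 and 4 or control replicates 1 and 3 left out singly (adjusted p = 0.0556 to 0.205). Of 21 bile acid genes, 2 rose and 5 fell (median 0.07), with 3 falls without 168 h replicate 3 or control replicate 3. In the main fit that is 9.52% higher and 23.8% lower, against 3.49% and 4.41% over all genes. Slc27a5, which activates bile acids with coenzyme A, had 3357, 3877, 4568 and 3998 at 168 h and 1059, 946, 2395 and 2027 in the controls, without overlap (1.38 ± 0.22, adjusted p = 4.17e-05). Beside Slco1a4 the falls included Abcc2, the canalicular pump of conjugates (-1.07 ± 0.24, adjusted p = 0.00314), and the sterol exporters Abcg5 and Abcg8 (-0.96 ± 0.21 and -0.78 ± 0.23, adjusted p = 0.00253 and 0.0267). For Akr1d1, which reduces the steroid ring in bile acid synthesis (-1.63 ± 0.43, adjusted p = 0.0125), the call ended without 168 h replicate 3 or control replicate 3 left out singly (adjusted p = 0.0521 to 0.0556). Cyp7a1, the rate-limiting enzyme of bile acid synthesis, had 713, 262, 1003 and 317 at 168 h and 288, 49.7, 889 and 387 in the controls, overlapping groups (0.74 ± 0.48, adjusted p = 0.411). Of 13 lipoprotein genes 1 rose and 1 fell, 7.69% each way, against 3.49% higher and 4.41% lower over all genes. Their median was 0.16, or -0.05 with the spike-in class as a block. Among them Apoa4, an apolipoprotein of triglyceride-rich particles, rose by 1.95 ± 0.36 (adjusted p = 0.000238). Lipc, hepatic lipase, fell, with 945, 744, 568 and 1340.2 at 168 h, against 1086, 1739.8, 2083 and 2383 in the controls (adjusted p = 0.00064).

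Acute-phase proteins had 4 of 20 genes higher and 0 lower (median 0.42). The median was 0.11 with the spike-in class as a block. It was -0.29 within the dim arrays, where 168 h has replicate 1 alone. Within the bright ones, where the controls have replicate 4 alone, it was 0.23. A2m, alpha-macroglobulin, a protease inhibitor that rats make in the acute phase, had signals of 6741, 17102, 19444 and 1319 at 168 h, against 211, 217, 225 and 311 in the controls. All 168 h arrays were above all controls, but replicates 2 and 3 were far above replicate 4 (4.78 ± 0.56, adjusted p = 1.13e-07). Lcn2, lipocalin, which binds bacterial iron carriers, stood at 2739.6, 12598, 14052 and 112 at 168 h and 268, 818, 89.4 and 157 in the controls, with replicate 4 inside the control range. Its change of 3.39 ± 0.88 passed (adjusted p = 0.0119), and the call ended without 168 h replicates 2 and 3 or control replicate 3 left out singly (adjusted p = 0.054 to 0.086). Without 168 h replicates 2 and 3 together it was 1.19 (adjusted p = 0.599).

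Orm1, the acid glycoprotein of the acute phase, had 6959, 23268, 23468 and 16395 at 168 h, against 3836, 6891, 785 and 3684 in the controls, and Serpina3n, a protease inhibitor, had 7741, 15905, 16508 and 8724 at 168 h, against 3867, 7443, 3499 and 4441. The lowest 168 h array was just above the highest control in both (2.40 ± 0.44 and 1.32 ± 0.28, adjusted p = 0.000233 and 0.00163). The haptoglobin gene Hp (0.59), the fibrinogen gene Fgb (0.31) and the complement gene C3 (0.38) did not pass (adjusted p = 0.383, 0.655 and 0.583). Alb, which encodes albumin, had 9768, 27951, 32174 and 27574 at 168 h and 11936, 13862, 14269 and 27883 in the controls, and in each group its high values fell on the arrays with bright spike-in RNAs. The part of the spike-in class in the plasma protein values was not tested beyond the block, with which the list had 4 higher and 1 lower.

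**Figure D3:**
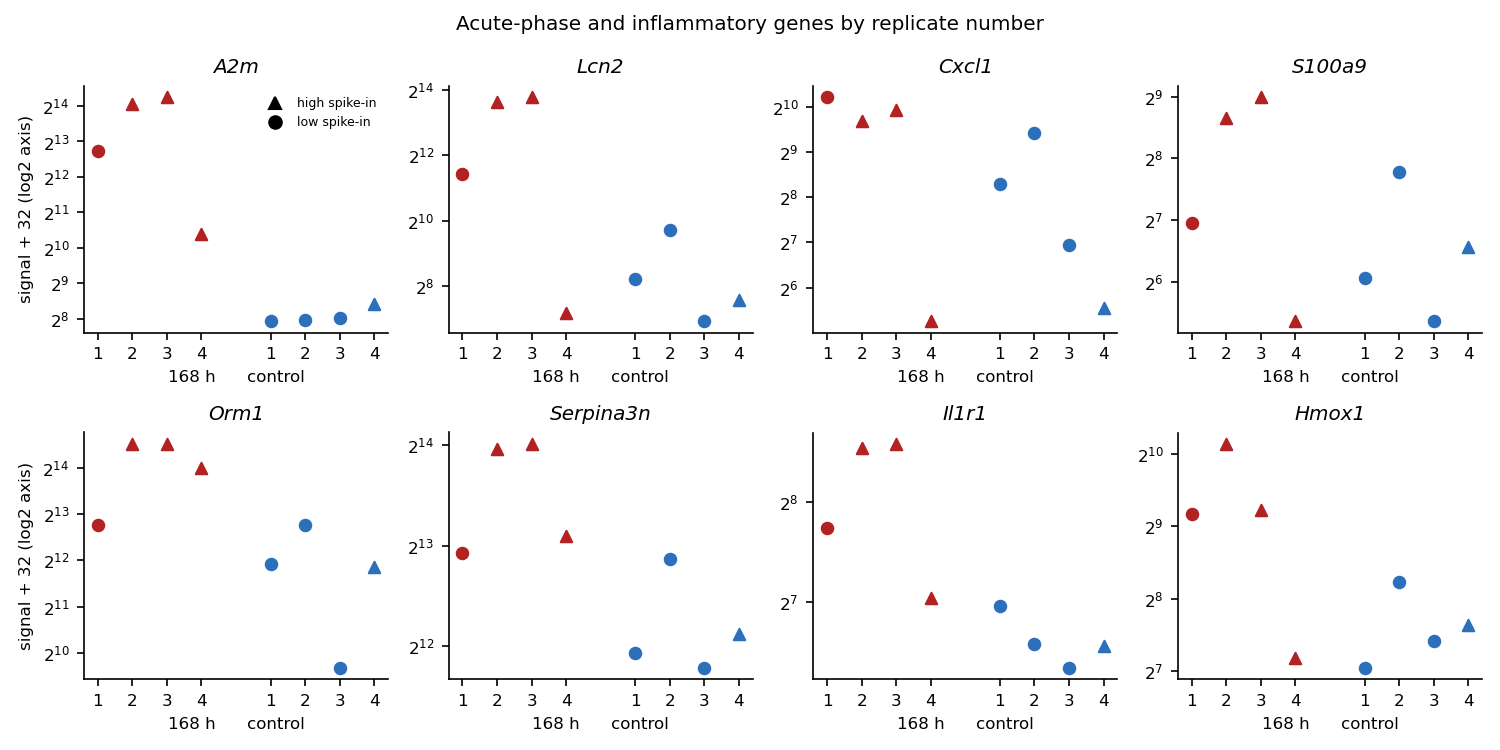
Signal + 32 on a log2 axis against replicate number, 168 h in red on the left of each panel and control in blue on the right, with triangles for arrays with bright spike-in RNAs and circles for dim ones. In Lcn2, Cxcl1, S100a9 and Hmox1 the 168 h replicate 4 lies within or below the controls, and the other 168 h arrays lie higher than it.

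Inflammatory mediators had 1 of 26 genes higher (3.85%) and 2 lower (7.69%), with a median of 0.07. Over all genes the shares were 3.49% and 4.41%, so the counts say little about the list. Il1r1, the interleukin receptor, had 183, 340.0, 352 and 99.5 at 168 h, against 92.9, 64, 49.1 and 62.3 in the controls, without overlap (1.36 ± 0.26, adjusted p = 0.000469). Ccl6, a chemokine of macrophages, had 449.5, 458, 575 and 216 at 168 h and 1466, 1024, 1058 and 1073 in the controls, all lower (-1.44 ± 0.24, adjusted p = 8.41e-05). Ccl5, a T cell chemokine, changed by -0.81 ± 0.22 (adjusted p = 0.0167), and the call ended without 168 h replicates 1 and 3 or control replicate 2 left out singly (adjusted p = 0.0544 to 0.0943). Cxcl1, a neutrophil attractant, had 1153, 786, 937 and 6.11 at 168 h, against 279, 651, 90.2 and 15.1 in the controls, and did not pass (1.22 ± 0.76, adjusted p = 0.395). Replicate 4 was the lowest 168 h array for Cxcl1 and also for Hmox1, heme oxygenase, with 547, 1097, 564 and 113 at 168 h and 100.4, 268, 139 and 167 in the controls (1.35 ± 0.35, adjusted p = 0.011). For Hmox1 the call ended without 168 h replicate 2 or control replicate 1 left out singly (adjusted p = 0.0543 to 0.0931).

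The summed signal of neutrophil markers ranged from 170.4 to 14595 at 168 h, against 155 to 1046 in the controls, lowest at 168 h in replicate 4. Lcn2, which is also in the acute-phase list, made up most of that sum on every 168 h array. Of the 3 tested markers only Lcn2 passed. S100a9, a calcium-binding protein of granulocytes, had 92.1, 372, 478 and 8.87 at 168 h and 34.4, 187, 9.26 and 62.2 in the controls (1.05 ± 0.48, adjusted p = 0.196). Mmp8, a collagenase stored in neutrophils, had 13.1, 46.1, 65.7 and 49.3 at 168 h and 46.0, 40.7, 56.4 and 70.7 in the controls, overlapping groups (-0.22 ± 0.22, adjusted p = 0.648). The part of neutrophils in the Lcn2 values was not tested.

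Coagulation genes had 0 of 13 higher and 1 lower, Klkb1, plasma prekallikrein, with 719.7, 693, 857 and 426 at 168 h, against 2711, 1669.5, 2739 and 1394 in the controls (-1.59 ± 0.32, adjusted p = 0.000956). That 1 was 7.69% of the coagulation list, against 4.41% lower over all genes, so the count says little about the list. None of 16 complement genes passed in limma, where 2 were lower and 0 higher at an unadjusted p under 0.05. Among 13 carriers of hormones and metals (median 0.28, or -0.06 with the spike-in block), the 2 that fell were Serpina6 and Serpina7. Ttr, transthyretin, another thyroid hormone carrier, had a difference of 0.07 ± 0.32 and Shbg, the sex steroid carrier, of 0.50 ± 0.22, and neither passed (adjusted p = 0.942 and 0.17). Of 11 male-type and urinary protein genes (median 0.39, or -0.04 with the spike-in block), Obp3 rose while Cyp2a2 and Hsd17b2 fell. Cyp2c11, the main male P450 of rat liver, had a difference of 1.09 ± 0.41 and Cyp2c12, its female counterpart, of -1.27 ± 0.66, and neither passed (adjusted p = 0.0967 and 0.273).

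Of 41 genes of P450 and other phase 1 enzymes, 4 rose and 7 fell (median 0.06), with 1 rise without 168 h replicate 1 and 2 without 168 h replicate 3 or control replicate 1. In the main fit that is 9.76% higher and 17.1% lower, against 3.49% and 4.41% over all genes. Por, the reductase that feeds electrons to the microsomal P450 enzymes, had 1082, 883, 935 and 762 at 168 h, against 331, 277, 169 and 188 in the controls, with no overlap (1.82 ± 0.41, adjusted p = 0.00282). Adh4, an alcohol dehydrogenase, changed by -1.72 ± 0.27, and Aox1, aldehyde oxidase, by -1.48 ± 0.43 (adjusted p = 3.50e-05 and 0.0265), lower together with Ephx1, Aldh1a1 and Cyp2a2. Conjugation enzymes and transporters had 3 of 27 higher and 6 lower (median -0.25), and all of the lower ones were glutathione transferases. The higher count was 1 without 168 h replicate 3 or 4, without control replicate 2 or with the spike-in class as a block. Gsta3 had 21.2, 47.4, 18.5 and 3.67 at 168 h and 248, 132, 314 and 76.8 in the controls (-1.96 ± 0.30, adjusted p = 1.39e-05), and Gstm1 had 1675, 1189, 1460.0 and 2871 at 168 h and 3890.4, 4402, 3543 and 5045 in the controls (-1.28 ± 0.21, adjusted p = 3.50e-05). Neither overlapped, but transcripts of these related families can share probe signal.

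Both subunits of the enzyme that starts glutathione synthesis fell. Gclc, the catalytic subunit, had 183, 192, 204 and 252 at 168 h and 686, 568, 785 and 606 in the controls (-1.53 ± 0.20, adjusted p = 7.56e-07). Gclm, the modifier subunit, had 216, 134, 141 and 215 at 168 h and 399, 625, 565 and 379 in the controls (-1.33 ± 0.26, adjusted p = 0.000644). All 168 h arrays were below all controls in both. They were the 2 members that fell among 20 oxidant-response genes (median -0.20, 4 falls without control replicate 2), where 1 rose, Hmox1. In the main fit that is 10% lower and 5% higher, against 4.41% and 3.49% over all genes.

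Among 12 clock genes, Bmal1, which drives the clock, rose by 0.76 ± 0.16 (adjusted p = 0.00152), with 137, 140.0, 145 and 183 at 168 h and 90.2, 55.2, 115 and 54.9 in the controls, and 2 targets of it were lower. Dbp changed by -1.30 ± 0.32 (adjusted p = 0.00678), where the call ended without 168 h replicate 4 or control replicate 2 left out singly (adjusted p = 0.0515 to 0.0551). Per2 changed by -1.16 ± 0.37 (adjusted p = 0.0439), where the call ended without 168 h replicates 1 and 4 or control replicates 1, 2 and 3 left out singly (adjusted p = 0.0756 to 0.223). The clock list had 8.33% higher and 16.7% lower, against 3.49% and 4.41% over all genes. The median of the list was 0.07, and time of day and treatment time cannot be told apart, as the labels give no time of day. Of 31 nuclear receptors and liver transcription factors (median 0.07), 4 rose and 1 fell. Nr1i3, the xenobiotic sensor CAR, had 207, 156, 164 and 305 at 168 h, against 108, 27.4, 129 and 65.2 in the controls, without overlap (1.13 ± 0.23, adjusted p = 0.000889), and Nr1h3, the oxysterol receptor LXRα, had 445, 684, 640.2 and 427 at 168 h, against 354, 322, 360.4 and 354 in the controls (0.59 ± 0.13, adjusted p = 0.002). Foxa1, a pioneer factor of liver, rose by 0.99 ± 0.22 (adjusted p = 0.00239), and Ncor1, a corepressor, changed by -0.43 ± 0.13 (adjusted p = 0.0353), a call that ended without 168 h replicate 3 or 4 or control replicate 1, 3 or 4.

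MHC class II molecules display peptides on macrophages, dendritic cells and B cells, and their genes carry a short upstream box shared by the family, the Y box. The windows from 250 bases before to 50 after the start of the called RT1 genes are shown, since these genes were called in the same direction. They come from RefSeq on build GRCr8, with CTGATTGG on either strand in capitals. RT1-Da lies at chr20:4515165-4515464 on the plus strand, RT1-Ba at chr20:4576807-4577106 on the plus strand and RT1-Db1 at chr20:4560113-4560412 on the minus strand.
RT1-Da: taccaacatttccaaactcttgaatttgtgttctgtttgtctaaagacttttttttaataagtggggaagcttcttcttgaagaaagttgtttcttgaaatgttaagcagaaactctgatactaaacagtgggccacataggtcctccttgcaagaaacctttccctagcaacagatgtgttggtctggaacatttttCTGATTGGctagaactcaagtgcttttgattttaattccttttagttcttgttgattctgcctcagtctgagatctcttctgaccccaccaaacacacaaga
RT1-Ba: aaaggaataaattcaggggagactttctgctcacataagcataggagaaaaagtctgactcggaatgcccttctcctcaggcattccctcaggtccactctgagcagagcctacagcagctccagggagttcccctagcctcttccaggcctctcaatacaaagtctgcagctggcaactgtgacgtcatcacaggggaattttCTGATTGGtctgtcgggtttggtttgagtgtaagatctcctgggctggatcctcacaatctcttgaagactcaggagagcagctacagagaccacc
RT1-Db1: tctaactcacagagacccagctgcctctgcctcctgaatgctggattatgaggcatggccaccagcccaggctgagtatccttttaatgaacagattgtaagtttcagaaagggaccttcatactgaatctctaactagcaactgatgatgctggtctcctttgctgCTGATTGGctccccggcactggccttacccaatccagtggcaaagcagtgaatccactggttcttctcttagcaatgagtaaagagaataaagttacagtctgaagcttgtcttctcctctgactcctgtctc
The box began 52, 46 and 83 bases before the start in RT1-Da, RT1-Ba and RT1-Db1. The same letters stood in 3.5% of all 33469 promoters and in 4 of the 5 tested RT1 class II genes that had a promoter entry, the fourth being RT1-Bb, which did not pass. A match is a description of the letters only.

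Of 11 class II presentation genes, 4 fell and 0 rose (median -0.40). Cd74, the invariant chain that chaperones class II molecules, had 181, 291, 415 and 173 at 168 h, against 889, 864, 659.6 and 937 in the controls, with all 168 h arrays lower (-1.61 ± 0.27, adjusted p = 8.81e-05). RT1-Da, the alpha chain of the rat D molecule, had 127, 151, 436 and 89.9 at 168 h and 526, 630.1, 385 and 433 in the controls, with 168 h replicate 3 inside the control range (-1.36 ± 0.31, adjusted p = 0.00288). RT1-Ba, the alpha chain of the B molecule, had 105, 105, 153 and 55.9 at 168 h and 244, 332, 247 and 302 in the controls, without overlap (-1.23 ± 0.25, adjusted p = 0.000919). For RT1-Db1, a beta chain, the change was -0.64 ± 0.17 (adjusted p = 0.0111), and the call ended without 168 h replicate 1 or control replicate 2 left out singly (adjusted p = 0.056 to 0.0582). Ciita, the transcriptional master of class II genes, had a difference of -0.40 ± 0.22 and did not pass (adjusted p = 0.299). RT1 genes are near-identical to one another in places, so that their probe sets may share signal. Without 168 h replicates 2 and 3 the list had 7 lower.

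Class I presentation and the immunoproteasome had 3 of 18 genes lower and 0 higher (median -0.40), with 5 lower without 168 h replicate 2 and with the spike-in class as a block. Psmb10, an immunoproteasome subunit, had 75.1, 131, 111 and 93.3 at 168 h, against 228, 249.8, 200.1 and 229 in the controls (-0.95 ± 0.21, adjusted p = 0.00238), and Psme1, a subunit of its activator, 837, 667, 722 and 587 at 168 h, against 1203, 1496, 1216 and 1509.9 in the controls (-0.92 ± 0.18, adjusted p = 0.000705). All 168 h arrays were lower in both. The third was RT1-S3, a class I gene (-1.24 ± 0.26, adjusted p = 0.00163). Among 24 interferon-response genes, 7 fell and 0 rose (median -0.40). Irf7, the factor that amplifies the interferon response, had 78.5, 105, 147 and 114 at 168 h and 259, 199, 281 and 385 in the controls, without overlap (-1.12 ± 0.21, adjusted p = 0.000293). Usp18, which removes the interferon-induced modifier ISG15, changed by -1.03 ± 0.24 (adjusted p = 0.00476). The antiviral Mx2 changed by -0.88 ± 0.22 (adjusted p = 0.0084), where the call ended without control replicate 4 (adjusted p = 0.0519). Irf1 (-0.37 ± 0.26) and Cxcl10 (-0.24 ± 0.24) did not pass (adjusted p = 0.466 and 0.654). The summed signal of the interferon list ranged from 6304 to 8629.5 at 168 h, against 11652 to 13392 in the controls.

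Matrix genes had 7 of 31 lower and 0 higher (median -0.32). Col14a1, a collagen of fibril surfaces, had 61.7, 82.1, 104 and 84.2 at 168 h, against 319, 300.2, 338 and 254 in the controls (-1.55 ± 0.20, adjusted p = 7.28e-07), and Col3a1, a fibrillar collagen, 509.9, 395, 348 and 392 at 168 h, against 695, 977, 770.3 and 1162 in the controls (-1.06 ± 0.27, adjusted p = 0.0115). In both the groups were apart. Without 168 h replicates 2 and 3 the list had 2 lower, as it had without replicate 3 alone, and it had 3 or 4 without 168 h replicate 4, control replicate 3 or control replicate 4. Of 30 cell-cycle genes (median -0.22), 2 fell and 1 rose, with 6 falls without control replicate 3 and 4 without control replicate 4. In the main fit that is 6.67% lower and 3.33% higher, near the 4.41% and 3.49% over all genes. Ccnd1 had 66.4, 86.8, 81.1 and 19.1 at 168 h and 513, 367, 223 and 299 in the controls, without overlap. Stmn1, a microtubule destabiliser of dividing cells, changed by -1.28 ± 0.31 (adjusted p = 0.00744), where the call ended without 168 h replicate 2 or control replicate 1 left out singly (adjusted p = 0.052 to 0.054). The rise was Cdkn1a, the inhibitor p21 (0.81 ± 0.26, adjusted p = 0.044), where the call ended without 168 h replicates 1, 2 and 4 or control replicates 1, 2, 3 and 4 left out singly (adjusted p = 0.0516 to 0.122).

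Oxidative phosphorylation had 19 of 71 tested genes higher and 0 lower, with a median of 0.29, and 63 of the changes were above 0. Ndufv3, a subunit of complex I, had 1152, 905, 824 and 784 at 168 h, against 381, 314, 373 and 441 in the controls (1.21 ± 0.20, adjusted p = 5.52e-05). Its 2 probe sets disagreed, and with their mean in place of the brighter one the change was 0.46 and did not pass (adjusted p = 0.089). Ndufv2, another complex I subunit, had 1587, 1369, 1379 and 1765 at 168 h and 895, 723, 1103 and 888 in the controls (0.74 ± 0.17, adjusted p = 0.00288), and Atp5f1e, a subunit of ATP synthase, 2207, 1548, 2162 and 2473 at 168 h and 993, 1230.3, 1415 and 1404 in the controls (0.71 ± 0.16, adjusted p = 0.00337). All 3 were without overlap. The summed signal of the list ranged from 93457 to 112740.0 at 168 h, above the 79251 to 83389.8 of the controls. Leaving out single arrays gave 10 to 16 members higher, with the lowest count without 168 h replicate 1 and 11 without control replicate 3. With the spike-in class as a block it was 16, and a fit to the 8 arrays alone gave 1.

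Ribosomal protein genes (39 tested, median -0.19) and proteasome genes (28 tested, median -0.04) had 0 past the threshold in limma. At an unadjusted p under 0.05, 7 ribosomal and 2 proteasome genes were lower and 0 higher. Without control replicate 4, 4 ribosomal genes passed as lower, and with the spike-in class as a block 1 did. Of 41 folding genes, 2 rose and 2 fell (median 0.10). That is 4.88% each way, near the shares over all genes (3.49% higher and 4.41% lower). The rises were 5 without control replicate 2 and 1 without 168 h replicate 2 or control replicate 3, and the falls were 0 without control replicate 1 or 3 and 1 without 168 h replicate 2, 3 or 4. Edem1 led the rises, with 4307, 4369, 7148 and 6213 at 168 h, against 655, 836, 1026 and 572 in the controls, while the chaperone Hspa5 had a difference of 0.08 ± 0.18 and did not pass (adjusted p = 0.858). Of 32 splicing genes 3 fell and 0 rose (median -0.17), led by Prpf19 (-0.56 ± 0.13, adjusted p = 0.00278). Of 36 lysosomal genes 5 fell and 0 rose (median -0.09), with 3 falls without control replicate 2 and also without 168 h replicates 2 and 3 together. Ctsc, a protease that activates granule enzymes of immune cells, changed by -0.92 ± 0.22, and Grn, progranulin, by -0.75 ± 0.16 (adjusted p = 0.00558 and 0.00175).

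Marker genes of liver cell types put the immune and matrix values in context. None of 9 hepatocyte markers passed (median 0.30, 1 higher at an unadjusted p under 0.05). Their median was -0.05 with the spike-in class as a block, -0.31 within the dim arrays and 0.06 within the bright ones. Of 9 Kupffer cell and macrophage markers (median -0.02), Clec4f, a lectin of rodent Kupffer cells, fell, with 192, 229, 341 and 225 at 168 h, against 674, 522, 658 and 658 in the controls (-1.26 ± 0.18, adjusted p = 6.78e-06). Csf1r had a difference of 0.36 ± 0.22, Cd68 of -0.41 ± 0.22 and Aif1 of -0.20 ± 0.19, and none of these 3 passed (adjusted p = 0.373, 0.295 and 0.617). The sum over the macrophage list was 2178 to 3974 at 168 h and 3144 to 3457 in the controls. Of 11 stellate cell and fibroblast markers (median -0.36) only Col3a1, also in the matrix list, passed. Their sum was 1377 to 1804 at 168 h, below the 1848 to 2719 of the controls. The part of either cell type in the falls of immune and matrix genes was not tested.

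Of 3 listed bile duct markers (median -0.70) Epcam fell (-0.71 ± 0.14, adjusted p = 0.000646). Its signals were 96.1, 116, 83.3 and 80.7 at 168 h and 149, 159.7, 183 and 204 in the controls. Krt8, a keratin not particular to bile ducts, fell too (-0.70 ± 0.18, adjusted p = 0.01), and the call ended without control replicate 2 (adjusted p = 0.0897). No marker of sinusoidal endothelium (9 tested, median -0.15), T and NK cells (9, median -0.14), dendritic cells (4, median -0.18), red cell precursors (3, median 0.52) or pancreas (8, median 0.39) passed in limma. At an unadjusted p under 0.05 these gave 1 lower endothelial and 1 higher dendritic marker and 0 in the other lists. Markers of B and plasma cells were not tested. Only 1 of the 12 listed was found among the array's gene symbols, and it did not pass the signal filter. Amy2a3, pancreatic amylase, had 72.5, 1333, 35.7 and 999 at 168 h, against 45.3, 111, 168 and 26.0 in the controls (1.57 ± 1.01, adjusted p = 0.411), high in replicates 2 and 4 at 168 h.

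Against the mean of 72 h and 96 h, 168 h differed in 72 genes (0.892%), 48 higher (0.595%) and 24 lower (0.297%), or in 99 probe sets (0.891%, with 0.612% higher and 0.279% lower). The question was which changes were late. The description of 96 h replicate 1 says 72 hours while its title says 96 h, and the title was used here. Without that array the count was 79 probe sets. Lcn2 had 2739.6, 12598, 14052 and 112 at 168 h, against 97.9, 144, 305 and 569 at 72 h and 424, 1430.2, 335 and 99.6 at 96 h, and rose by 3.13 ± 0.77 (adjusted p = 0.0339). Cxcl1 had 1153, 786, 937 and 6.11 at 168 h, against 33.5, 12.2, 8.60 and 46.2 at 72 h and 5.59, 203, 53.8 and 13.0 at 96 h (2.75 ± 0.66, adjusted p = 0.0321). Replicate 4 was the lowest 168 h array in both and lay within the earlier range. A2m (2.22 ± 0.49) and Hmox1 (1.81 ± 0.30) rose as well (adjusted p = 0.0161 and 0.00485), and so did Akr1b7, an aldo-keto reductase, with 973, 164, 1269 and 24.2 at 168 h, against 21.0, 27.1, 33.2 and 5.60 at 72 h and 21.4, 50.4, 154 and 28.5 at 96 h (2.38 ± 0.45, adjusted p = 0.00697).

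The lower genes of that comparison were led by Cyp2a2 (-1.67 ± 0.35, adjusted p = 0.0126) and Crot (-1.52 ± 0.36, adjusted p = 0.0277). Crot had 62.2, 80.3, 89.4 and 149.5 at 168 h, against 843, 303, 546 and 408 at 72 h and 338, 147, 76.2 and 426 at 96 h. Next came Cela1, a pancreatic elastase on the pancreas marker list (-1.47 ± 0.33, adjusted p = 0.0185), Ces1d, a carboxylesterase (-1.15 ± 0.28, adjusted p = 0.0336), and Acot4, a peroxisomal thioesterase (-1.04 ± 0.25, adjusted p = 0.0336). The count of 99 probe sets was 3 without 168 h replicate 3, 11 without replicate 2, 1 without both and 252 without replicate 4. Without replicate 3, 9 of these 10 genes no longer passed (adjusted p = 0.148 to 0.354), the exception being Hmox1, which did not pass without replicates 2 and 3 together (adjusted p = 0.599). Leaving out a single 72 h or 96 h array also ended the call of Lcn2, Cxcl1, Crot, Ces1d or Acot4 in some cases (adjusted p = 0.0508 to 0.0787). In a fit to the 12 arrays of the comparison alone it was 0, with 911 probe sets at an unadjusted p under 0.05.

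Against the mean of 6, 10, 13 and 18 h, the window of the early response, 876 genes differed at 168 h (10.9%), 356 higher (4.41%) and 520 lower (6.44%), or 1143 probe sets (10.3%, with 4.27% higher and 6.02% lower). Cyp4a8 rose most, by 4.36 ± 0.28 (adjusted p = 9.73e-15), followed by Rgs16 (2.88 ± 0.33, adjusted p = 7.02e-08), Fasn (2.52 ± 0.41, adjusted p = 4.55e-05), Tmem164, a membrane protein (2.36 ± 0.21, adjusted p = 1.14e-10), and Thrsp (2.29 ± 0.35, adjusted p = 1.53e-05). The largest falls were Serpina6 (-3.66 ± 0.37, adjusted p = 3.09e-09), Igfbp2 (-3.28 ± 0.39, adjusted p = 1.60e-07), Aldh1a1 (-3.12 ± 0.31, adjusted p = 2.44e-09), Ephx1 (-2.63 ± 0.30, adjusted p = 1.07e-07) and Serpina7 (-2.56 ± 0.36, adjusted p = 4.88e-06). By list, 20 of 39 ribosomal protein genes were lower at 168 h than in the early window and 0 higher. The comparison shares its 168 h arrays with the one against control, so the changes are not independent. Without 168 h replicate 3 the count was 674 probe sets, and without replicates 2 and 3 it was 336.

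Read across the course, the genes of the late response fell into differing shapes. The means include 96 h replicate 1, whose label is in doubt, and 48 h replicate 1, whose description carries the wording of the other, shorter course. Cyp4a8 averaged 38.7 ± 10.6 in the controls, then 43.5 ± 10.5 (18 h), 272 ± 252 (48 h), 1046 ± 521 (96 h) and 1514 ± 491 (168 h, SD, n = 4 at each time), highest at the last time. Serpina6 averaged 5255 ± 1945 in the controls, then 2162 ± 128 (18 h), 1005 ± 809 (72 h), 387 ± 293 (96 h) and 254 ± 194 (168 h), lowest at the last time. The groups at 96 h and 168 h overlapped in both genes, and 168 h minus the mean of 72 h and 96 h was 0.93 ± 0.30 for Cyp4a8 and -1.07 ± 0.40 for Serpina6, neither past the threshold (adjusted p = 0.145 and 0.235).

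Other genes were high early and again late. A2m averaged 241 ± 47.2 in the controls, then 5366 ± 3265 (6 h), 9876 ± 2207 (24 h), 1321 ± 816 (72 h) and 11152 ± 8569.7 (168 h), so that its 168 h level followed a trough. Fkbp5 averaged 75.9 ± 11.8 in the controls, then 469 ± 76.8 (10 h), 149.9 ± 57.1 (24 h) and 485 ± 127 (168 h). Lpin1 averaged 156 ± 31.6 in the controls, then 2543 ± 386 (6 h), 258 ± 28.0 (24 h) and 1938 ± 549 (168 h). Cd74 was at 838 ± 122 in the controls, 229.9 ± 85.7 at 36 h and 265 ± 114 at 168 h, with 168 h near the lowest of the course. Of the 15 genes with the largest falls against control, 13 had their lowest mean log2 signal of all treated times at 168 h. Of the 15 with the largest rises, 6 had their highest there. Both sets were chosen by their change at 168 h, which favours an extreme at that time. The counts describe the chosen genes only, and the share over all genes was not computed.

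**Figure D4:**
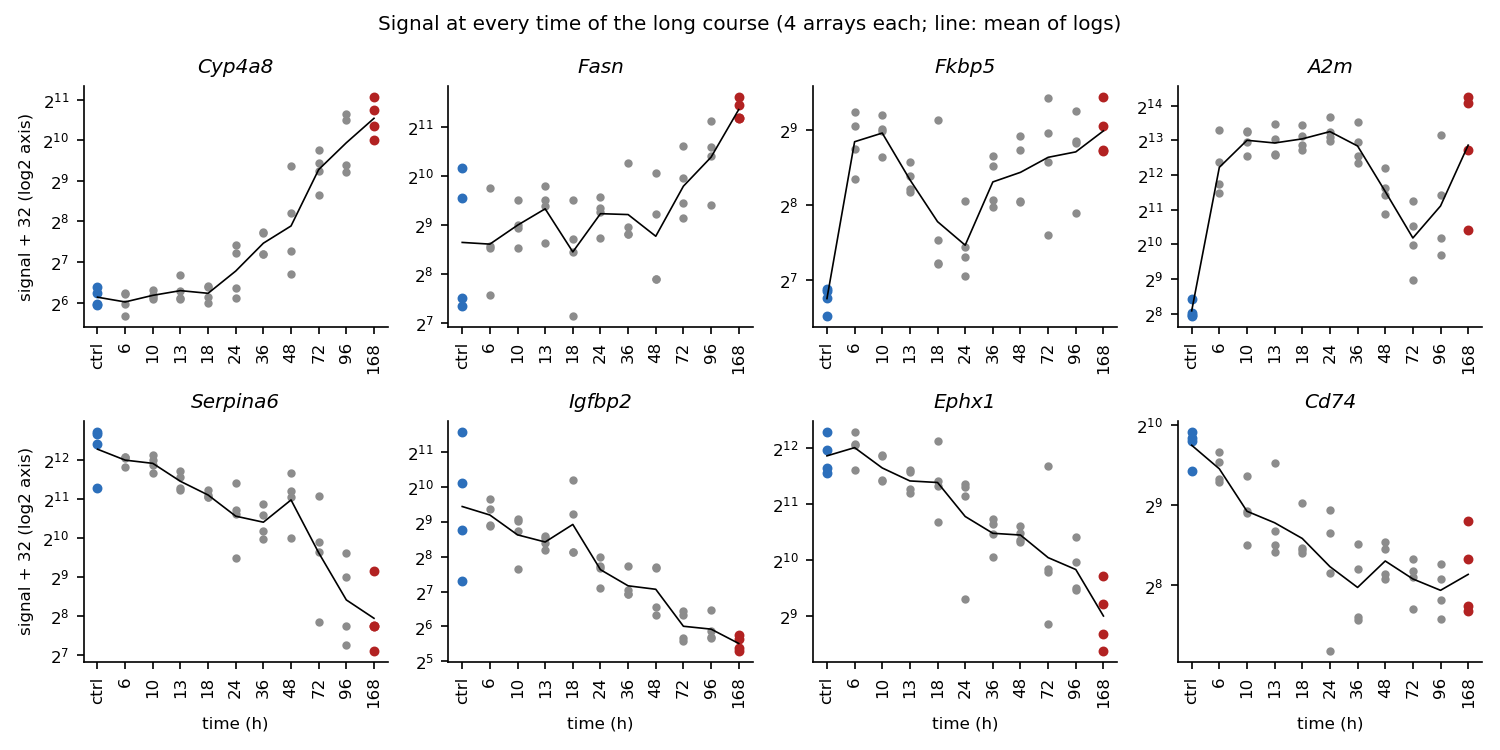
Signal + 32 on a log2 axis at each time of the long course for 8 genes, controls first and 168 h last; points are the 4 arrays of each time (blue control, red 168 h, grey other times), and the line joins the means of the logs. Cyp4a8 and Fasn climb to 168 h, Serpina6, Igfbp2 and Ephx1 fall to it, and A2m and Fkbp5 dip between an early and a late high.

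The promoter windows of the most changed genes were read for AGAACA on either strand, letters of the glucocorticoid response element. It stood in 3 of the 10 windows found for the 15 genes with the largest rises (Lpin1, Obp3 and Sult1a1) and in 2 of the 10 found for the 15 with the largest falls (Ephx1 and Slfn4), against 20.7% of all promoters. The windows are short, and a match or its lack says nothing of receptor binding.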

How the data were processed

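Signals are probe set intensity values as the authors deposited them, scaled by them so that every array has a 2% trimmed mean of about 150; the labels and file headers name no scanner software or further step. The values were taken as log2(signal + 32) from 15923 probe sets, without 57 control probe sets, and those whose mean lay below the 30th percentile were left out, leaving 11106. Of the probe sets, 12783 had 1 gene symbol, 312 several and 2771 none, with symbols updated through RefSeq of GRCr8, and the brightest probe set stands for a gene. limma 3.58.1 in R 4.3.3 fitted group means over all 44 long-course arrays with a trended prior and Benjamini-Hochberg adjustment over all probe sets of a contrast, with an adjusted p of 0.05 as the threshold, and was tested on simulated data. Contrasts were 168 h against control, against the mean of 72 h and 96 h and against the mean of 6, 10, 13 and 18 h. Arrays were classed by the mean log2 signal of their spike-in RNAs, split at 9 (15 bright and 29 dim of 44), since the labels give no batch. No pair of the 946 had identical values. Same-numbered arrays of the 2 groups correlated at -0.08 to 0.13 in their deviations, and the samples were not treated as paired. So few correlations cannot exclude a structure by replicate number. Replicate 4 was bright at every time, and replicate number as a block gave 941 probe sets against control, where the main fit gave 825.

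The genes and the 34 gene lists and 11 marker lists were chosen with earlier results of these data known. Named genes are the 15 largest rises and 15 largest falls past the threshold, up to 4 called members per list by size, the 5 largest each way in the other contrasts, Tat and Nr3c1. Other genes named, among them those outside this rule that did not pass, were chosen after their values were seen. Alternatives were other added constants (16 and 64), quantile normalization, median centring, other filters, array weights, averaging the probe sets of each gene, blocks, subsets of arrays and leaving out each replicate.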

Additional observations from a re-analysis of the deposited data

Results flagged for a closer look

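In groups of 4 arrays, a value was marked where its gap to the nearest of the others took up more of the group's range than Dixon's critical value allows. Of 234 group values over 117 genes 14 were marked, and chance marks about 1 in 20. At 168 h these were Bhmt in replicate 4, with a signal of 13757 (the others 5024 to 5717), Cxcl1 in replicate 4, with 6.11 (786 to 1153), and Acot4 in replicate 3, with 10.8 (62.9 to 73.1).

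In control replicate 2 they were Sult1a1 with 215 (1730 to 2427), Gnmt with 394 (1460.5 to 1616), Ahcy with 881 (1634 to 1821), Nr1h3 with 322 (354 to 360.4), Prpf19 with 309 (219 to 226) and Clec4f with 522 (658 to 674). In control replicate 4 they were A2m with 311 (211 to 225), Serpina7 with 301 (1500.2 to 1796) and Mx2 with 136 (62.2 to 71.8). In control replicate 1 they were Sds with 1641 (67.5 to 81.1) and Ccl6 with 1466 (1024 to 1073).

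In the limma test of 168 h against the mean of 72 h and 96 h, 72 genes passed. The 10 listed here are the 5 largest changes each way. Those higher at 168 h were Lcn2 by 3.13, Cxcl1 by 2.75, Akr1b7 by 2.38, A2m by 2.22 and Hmox1 by 1.81 on the log2 scale. Those lower were Cyp2a2 at -1.67, Crot at -1.52, Cela1 at -1.47, Ces1d at -1.15 and Acot4 at -1.04. In a fit to the arrays of that contrast alone 0 probe sets passed, and without 168 h replicate 3 only 3 did.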

How the results depend on the processing

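The counts below are of probe sets past the threshold. Against control, 825 (377 higher, 448 lower) became 266 (144 and 122) in a fit to the 8 arrays alone, 253 (137 and 116) in the dim and 19 (15 and 4) in the bright spike-in arrays, and 479 (246 and 233) without 168 h replicates 2 and 3, an alternative chosen after seeing the data. Leaving out 1 array gave 574 to 878 (283 to 405 higher, 291 to 473 lower). The replicate block gave 941 and the spike-in block 761. Against 72 h and 96 h, 99 became 44 with array weights, 8 in the dim and 0 in the bright arrays (657 in limma at an unadjusted p under 0.05), 0 in the arrays of the contrast alone (911 at an unadjusted p under 0.05), 1 without replicates 2 and 3, and 3 to 252 with 1 array left out. Against 6 to 18 h, 1143 became 61 in the dim and 44 in the bright arrays, 336 without replicates 2 and 3, and 674 to 1206 with 1 array left out. These subsets hold fewer arrays. Of the 110 named genes past the threshold against control, all kept their sign in each of the 8 leave-one-out fits, 80 stayed past it in all of them and 79 without replicates 2 and 3. With the spike-in class as a block 14 of them no longer passed (Nrep, Tat, Pc, Fbp1, Gpi, Msmo1, Per2, Cdkn1a, Ifitm3, Bgn, Col6a3, Uqcr10, Hspa1a and Cct3). Of 88 list counts in 1 direction, 41 moved by over 1.5 times when 1 of the 8 arrays was left out. With each gene's probe sets averaged, Ndufv3 alone of the named genes no longer passed. Nr3c1, not past the threshold, turned to 0.22 in the bright arrays, and the cause was not tested. The 4 arrays a group limit what small changes can be seen.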
